A study of Mus musculus with 10 samples.

Results

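Rspo4 and 9 other modulators of Wnt signalling were followed through brown adipose tissue of mice that had or had not become obese on a high-fat diet. They are 10 of the 32889 genes in the deposited table and were found by gene symbol: Rspo4, Rspo1, Rspo3, Lgr4, Znrf3, Rnf43, Sfrp1, Sfrp5, Axin2 and Wif1. Rspo4 was selected on its measured level in obesity-prone against control libraries, where it was higher, so for all 10 genes that contrast is described and not tested. Total RNA of the heat-producing fat depot was sequenced from wild-type C57BL/6J mice in 10 libraries. The groups compared were obesity-prone mice on a high-fat diet (3 libraries), obesity-resistant mice on the same diet (3 libraries), and control mice on regular chow (4 libraries). All carried the same genotype and received no other agent, per the labels. Age, sex and time on the diet are not given in the sources used here, and whether each library is a separate animal is not stated, so p-values measure only the spread between these samples.

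In canonical Wnt signalling a secreted Wnt ligand binds a Frizzled receptor and an LRP co-receptor, which stabilises beta-catenin and lets it activate target genes with TCF/LEF factors. The membrane ubiquitin ligases ZNRF3 and RNF43 remove Frizzled receptors from the cell surface. R-spondins are secreted proteins that bind LGR receptors and ZNRF3 or RNF43 together and so keep Frizzled receptors in place, which enhances the response to Wnt. Secreted Frizzled-related proteins and WIF1 bind Wnt ligands outside the cell. In adipose tissue, canonical Wnt signalling is known to restrain adipocyte differentiation.

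Rspo4 lies on the plus strand of chromosome 2, and Axin2, a negative-feedback target of the pathway, on the plus strand of chromosome 11. All 10 genes are protein-coding, and gene positions are those of RefSeq in GRCm38.p6. The promoter sequences of Rspo4 and Axin2 are shown because these are the gene on which the choice rests and the standard transcriptional readout of the pathway. Each line gives the 250 bases before the transcript start that RefSeq uses, 5′ to 3′ in GRCm38.p6, with the GC box (GGGCGG or CCGCCC) and the E-box (CACGTG) in capitals. The RefSeq gene spans begin upstream of both windows, and no GENCODE M21 exon falls inside either.

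Rspo4 promoter (chr2:151842677-151842926): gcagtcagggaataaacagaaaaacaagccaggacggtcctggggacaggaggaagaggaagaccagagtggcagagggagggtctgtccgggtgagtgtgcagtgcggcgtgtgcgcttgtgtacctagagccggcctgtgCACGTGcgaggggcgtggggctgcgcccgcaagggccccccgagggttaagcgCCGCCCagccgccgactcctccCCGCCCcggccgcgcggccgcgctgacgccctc

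Axin2 promoter (chr11:108920099-108920348): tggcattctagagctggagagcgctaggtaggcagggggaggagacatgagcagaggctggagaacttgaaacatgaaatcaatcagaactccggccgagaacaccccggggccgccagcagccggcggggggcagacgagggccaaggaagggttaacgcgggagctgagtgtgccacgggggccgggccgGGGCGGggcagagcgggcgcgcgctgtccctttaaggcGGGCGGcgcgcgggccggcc

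The Rspo4 window held 2 GC boxes, 1 E-box and 24 CpG dinucleotides at 69.6% G and C, and the Axin2 window held 2 GC boxes, no E-box and 24 CpG dinucleotides at 69.2%. Of the 10 genes, 7 have promoter windows in the RefSeq table, 8 windows in all, searched on both strands over 250 bases before to 50 after the start. The TCF/LEF core CTTTGAT, or ATCAAAG on the other strand, was in 0 of the 8 windows and in 3.73% of 32851 promoters of the same length. The GC box was in 4 windows, those of Rspo4, Wif1, Axin2 and Sfrp5, against 35.7% of all promoters. The E-box was in the windows of Rspo4 and Wif1, against 7.15%. The matches printed above do not overlap one another. These are letter matches in short windows and do not identify sites in use.

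The libraries held between 35583997 and 37327770 counts, so that 1 count was worth 0.0258 to 0.0289 CPM (counts scaled to library depth, on library sizes normalised by the TMM method). The tissue label was checked with Ucp1, the uncoupling protein that generates heat in brown fat, which ranged from 2882 to 8461 CPM in obesity-prone, 8653 to 9753 CPM in obesity-resistant and 6240 to 10271 CPM in control libraries. On the first principal component, which held 30.6% of the variance, obesity-prone replicate 3 (74.6) and control replicate 4 (11.1) stood apart from the rest of their groups, at 19.7 to 37.5 for the other obesity-prone and -55.6 to -34.9 for the other control libraries. The obesity-resistant libraries lay between -6.38 and 0.48. In bulk tissue, fewer cells of a type and less RNA per cell cannot be told apart.

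Rspo4 (identifier 228770, chromosome 2, 151842647 to 151874668), an R-spondin, was scarce in control brown fat and present in every library of the high-fat diet. It reached 1.96, 1.17 and 1.58 CPM in obesity-prone replicates 1 to 3, and 0.334, 0.269 and 0.576 CPM in obesity-resistant replicates 1 to 3, against 0.112, 0, 0.0570 and 0 CPM in control replicates 1 to 4. All obesity-prone libraries lay above all obesity-resistant libraries, and these lay above all control libraries. The read evidence behind this order was small: 179 counts over the obesity-prone, 43 over the obesity-resistant and 6 over the control libraries, 2 of which had none. Rspo4 passed the low-count filter (a minimum count of 10 in enough libraries) only through the libraries in which it was high.

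The log2 fold change of Rspo4 between obesity-prone and control libraries was 5.11 ± 0.64 (SE), given as a description because it chose the gene. The ratio of summed counts per normalised depth was 37.5 with an exact 95% interval of 16.9 to 103.5, which covers counting error only. In the obesity-resistant against control libraries the log2 fold change was 3.12 ± 0.70, and the count ratio was 9.30 (3.94 to 26.7, counting error only). This comparison shares the control libraries with the contrast that chose the gene, so its values are a description too, with no test.

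Between obesity-prone and obesity-resistant libraries, from mice on the same diet, the log2 fold change of Rspo4 was 1.99 ± 0.54. The count ratio was 4.03 (2.88 to 5.77, counting error only). This comparison shares the obesity-prone libraries with the choice and is likewise only described. With obesity-prone replicate 3 and control replicate 4 both left out, the log2 fold changes were 4.71 against control for obesity-prone libraries, 2.73 against control for obesity-resistant libraries, and 1.98 between the diet groups. Without obesity-prone replicate 3 alone the value for obesity-prone against control libraries was 5.11.

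The order obesity-prone above obesity-resistant above control, with no overlap between neighbouring groups, was shared by 111 of the 19676 genes tested (0.564%). This order includes the contrast on which Rspo4 was chosen, so the share is given as background only. In the single comparisons, 9.66% of genes lay wholly higher in obesity-prone than in control, 10.5% in obesity-resistant than in control and 9.99% in obesity-prone than in obesity-resistant libraries.

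**Figure D1:**
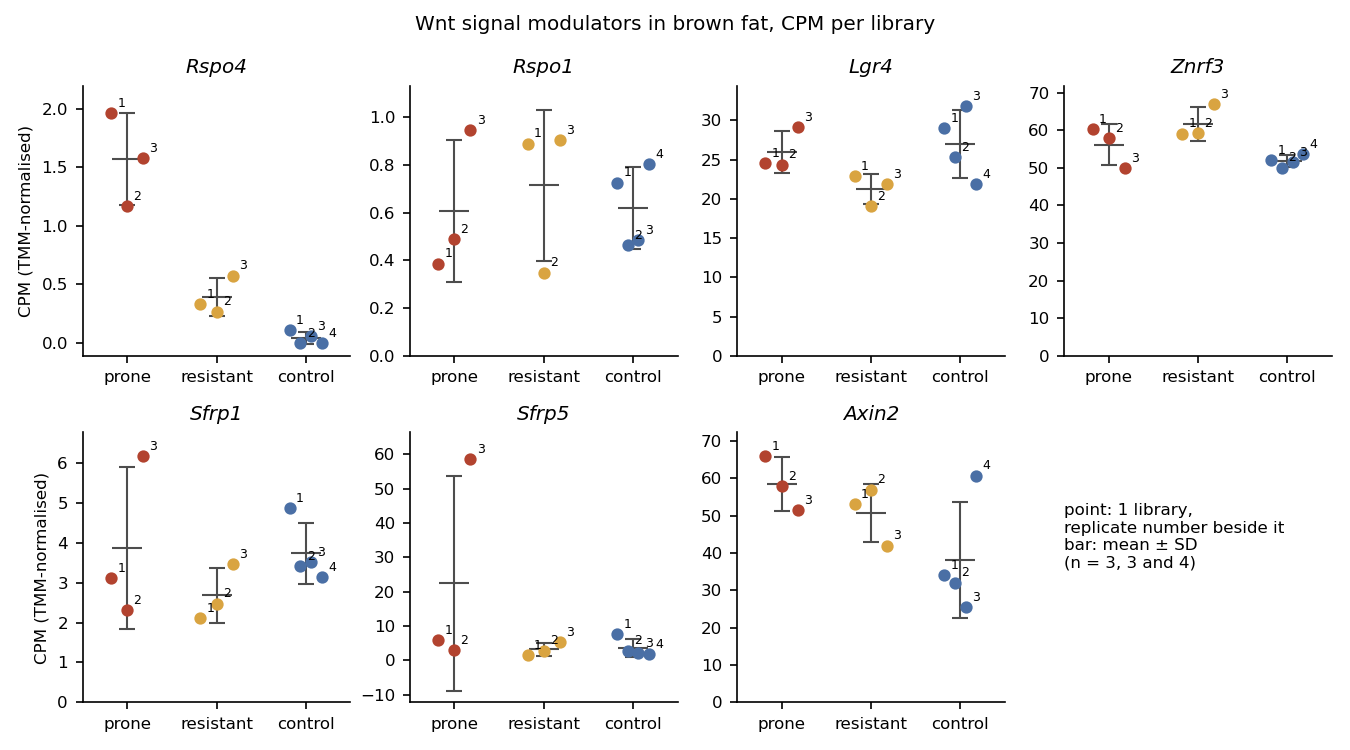
CPM of the 7 genes that passed the low-count filter, one panel per gene, with 1 point per library, its replicate number beside it, and bars for the mean ± SD (n = 3 obesity-prone, 3 obesity-resistant and 4 control). Rspo4 lies at 1.17 to 1.96 CPM in obesity-prone, 0.269 to 0.576 CPM in obesity-resistant and 0 to 0.112 CPM in control libraries, and Sfrp5 stands out at 58.5 CPM in obesity-prone replicate 3 alone.

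Rspo1 (chromosome 4, 124986401 to 125009102), the R-spondin most abundant in control libraries, did not follow Rspo4. It had 0.387, 0.489 and 0.947 CPM in obesity-prone, 0.890, 0.349 and 0.905 CPM in obesity-resistant, and 0.727, 0.463, 0.485 and 0.803 CPM in control libraries, and the 3 groups overlapped. Its log2 fold change was -0.03 ± 0.42 in obesity-prone against control libraries. It was 0.20 ± 0.42 (95% interval -0.72 to 1.12, adjusted p = 0.84) in obesity-resistant against control libraries and -0.23 ± 0.45 (-1.22 to 0.76, adjusted p = 0.83) in obesity-prone against obesity-resistant libraries by edgeR. The test was edgeR's quasi-likelihood test with Benjamini-Hochberg adjustment over 19676 genes and a threshold of 0.05, here and below. These intervals are wide enough to include a doubling of Rspo1 in the obesity-resistant group.

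Rspo3 (chromosome 10, 29453106 to 29535867), another R-spondin, had counts in every library but did not pass the filter. There were 6, 4 and 3 counts in obesity-prone, 3, 7 and 5 in obesity-resistant, and 10, 5, 9 and 8 in control libraries. The summed counts gave a ratio of 0.511 (exact 95% interval 0.246 to 1.0) for obesity-prone and of 0.608 (0.306 to 1.16) for obesity-resistant against control libraries, with overlapping groups in both. An antisense gene, Gm48159, shares exon bases with Rspo3, and the strand setting of the counting is not given in the sources used here, so reads of the 2 genes cannot be told apart. Rspo2, the remaining R-spondin, had between 0 and 7 counts per library.

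Rspo4 made up most of the R-spondin transcripts in obesity-prone brown fat and a small share in control brown fat. On the FPKM scale, which divides by transcript length, Rspo4 was 73.6%, 61.9% and 54.7% of the summed level of the R-spondins in the obesity-prone libraries. It was 21.2%, 26.7% and 31.8% in the obesity-resistant and 10%, 0%, 9.76% and 0% in the control libraries. The summed level was 1.29, 0.84 and 1.28 FPKM in obesity-prone, 0.66, 0.45 and 0.88 FPKM in obesity-resistant, and 0.70, 0.35, 0.41 and 0.55 FPKM in control libraries. The shares did not overlap between the groups, whereas the summed level overlapped between obesity-prone and obesity-resistant and between obesity-resistant and control libraries. Rspo4 takes part in both measures, so neither is independent of the choice of the gene.

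**Figure D2:**
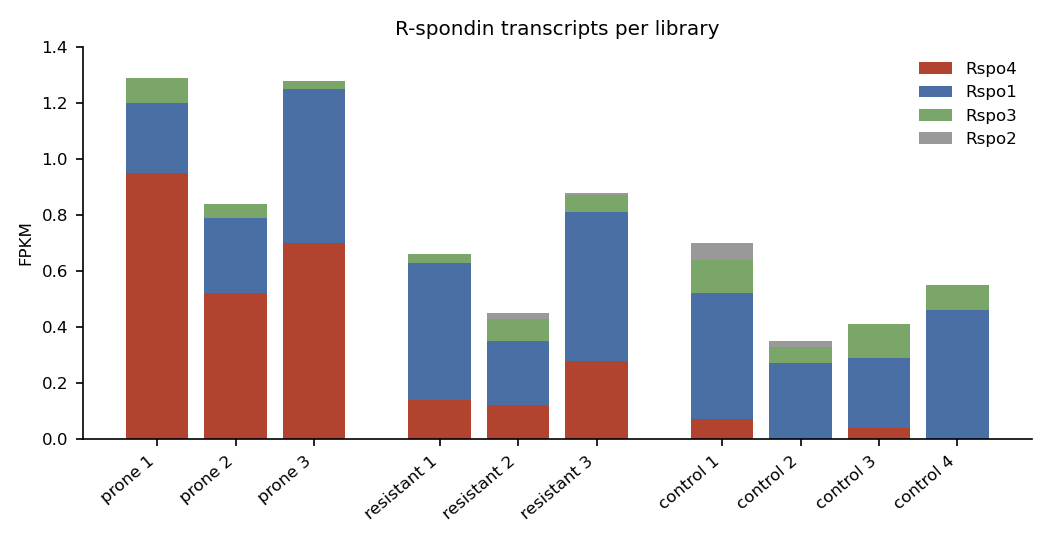
Stacked FPKM of Rspo4, Rspo1, Rspo3 and Rspo2 in each of the 10 libraries, on an axis from 0. Rspo4 makes up 54.7% to 73.6% of each obesity-prone bar, 21.2% to 31.8% of each obesity-resistant bar and 0% to 10% of each control bar.

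The receptor and the ligase on which R-spondins act were expressed at far higher levels per transcript length than the R-spondins, and no comparison moved either by more than 0.34 on the log2 scale. Lgr4 (chromosome 2, 109917647 to 110014257), a receptor for R-spondins, had 24.5, 24.4 and 29.1 CPM in obesity-prone, 22.9, 19.1 and 21.9 CPM in obesity-resistant, and 29.0, 25.3, 31.8 and 21.8 CPM in control libraries. The 3 obesity-resistant libraries were below all 3 obesity-prone libraries, as in 9.99% of all genes. The obesity-resistant libraries overlapped the control libraries through control replicate 4. For obesity-prone against control libraries its log2 fold change was -0.05 ± 0.13. It was -0.34 ± 0.13 (95% interval -0.64 to -0.05, adjusted p = 0.22) in obesity-resistant against control libraries and 0.29 ± 0.14 (-0.03 to 0.61, adjusted p = 0.36) in obesity-prone against obesity-resistant libraries by edgeR. With both left out, obesity-prone replicate 3 and control replicate 4, the value for obesity-resistant against control libraries was -0.42 (adjusted p = 0.034, range over all alternatives 0.034 to 0.48). Both were left out after seeing the data, and that fit called 2212 genes in this comparison, against 28 with all libraries.

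Znrf3 (chromosome 11, 5276329 to 5444847), the ubiquitin ligase that R-spondins inhibit, had 60.3, 58.0 and 49.95 CPM in obesity-prone, 59.1, 59.1 and 66.9 CPM in obesity-resistant, and 52.1, 50.03, 51.5 and 53.7 CPM in control libraries. All 3 obesity-resistant libraries lay above all 4 control libraries, as in 10.5% of all genes. The log2 fold change was 0.11 ± 0.09 for obesity-prone against control libraries and 0.25 ± 0.09 (95% interval 0.06 to 0.44, adjusted p = 0.17) for obesity-resistant against control libraries by edgeR. Between the diet groups it was -0.14 ± 0.09 (-0.34 to 0.07, adjusted p = 0.48). With these same libraries left out the value for obesity-resistant against control libraries was 0.28 (adjusted p = 0.039, range over all alternatives 0.039 to 0.38). That fit, chosen after seeing the data, called 2212 genes in this comparison, against 28 with all libraries. Rnf43 (chromosome 11, 87663087 to 87735539), the related ligase, was close to absent, with sums of 7, 7 and 9 counts over the obesity-prone, obesity-resistant and control libraries and no library above 0.03 FPKM.

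Sfrp5 (chromosome 19, 42197971 to 42202252), a secreted Wnt-binding inhibitor known as an adipokine, was marked by a single library. It had 58.5 CPM in obesity-prone replicate 3, against 5.83 and 2.94 CPM in obesity-prone replicates 1 and 2. The obesity-resistant libraries had 1.58, 2.82 and 5.21 CPM and the control libraries 7.60, 2.87, 2.14 and 1.85 CPM, so that all groups overlapped. Its log2 fold change in obesity-prone against control libraries was 2.63 ± 0.93 with all libraries and 0.28 without obesity-prone replicate 3. In obesity-prone against obesity-resistant libraries it was 2.80 ± 1.04 (95% interval 0.48 to 5.13, adjusted p = 0.27 by edgeR) and 0.45 without that library (adjusted p = 0.88). In obesity-resistant against control libraries it was -0.17 ± 0.96 (-2.31 to 1.97, adjusted p = 0.95).

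The same library was also highest for Sfrp1 (chromosome 8, 23411383 to 23449632), another secreted Frizzled-related protein. Sfrp1 had 3.12, 2.31 and 6.16 CPM in obesity-prone, 2.11, 2.47 and 3.45 CPM in obesity-resistant, and 4.86, 3.42, 3.51 and 3.13 CPM in control libraries, with overlap between all groups. Its log2 fold change was 0.05 ± 0.32 for obesity-prone against control libraries and -0.46 without obesity-prone replicate 3, a change of sign. It was -0.48 ± 0.33 (95% interval -1.20 to 0.25, adjusted p = 0.48) for obesity-resistant against control libraries and 0.53 ± 0.35 (-0.24 to 1.30, adjusted p = 0.48) between the diet groups by edgeR. Wif1 (chromosome 10, 121034004 to 121100642), which binds Wnt ligands outside the cell, had 5, 1 and 3 counts over the obesity-prone, obesity-resistant and control libraries and was at 0 in 6 of the 10 libraries.

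Summed levels of markers of several cell types varied between libraries, obesity-prone replicate 3 among them, and were not tested between groups. The summed level of 6 general adipocyte markers was 7567, 9301 and 7734 CPM in obesity-prone replicates 1 to 3, 9686 to 11665 CPM in obesity-resistant and 11426 to 12319 CPM in control libraries. Every obesity-prone library was below all others in this sum, and the obesity-resistant and control libraries overlapped. Taken singly, 0 of the 6 markers had a log2 fold change above 0 in obesity-prone against control libraries (median -0.44). Against obesity-resistant libraries 3 of the 6 did (median 0.02), so the sum does not stand for each marker. The summed level of 12 progenitor and fibroblast markers was 2145, 1824 and 4397 CPM in obesity-prone replicates 1 to 3, 1358 to 1419 CPM in obesity-resistant and 1502 to 2154 CPM in control libraries, with no marker at 0 in any group. That of 10 macrophage markers was 359, 192 and 544 CPM in obesity-prone, 134 to 160 CPM in obesity-resistant and 132 to 234 CPM in control libraries, again with none at 0. The summed level of 11 brown adipocyte markers was lowest in obesity-prone replicate 3, at 4007 CPM, against 8796 to 12728 CPM in the other 9 libraries. The summed level of 9 endothelial markers was 731, 1053, 832 and 1296 CPM in control replicates 1 to 4, highest in replicate 4. It was 1115 to 1314 CPM in obesity-prone and 997 to 1232 CPM in obesity-resistant libraries. The part of these cells in the levels of Rspo4, Sfrp5, Sfrp1, Axin2 and the other genes was not tested.

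Axin2 (chromosome 11, 108917828 to 108950783), the scaffold protein of the beta-catenin destruction complex that canonical Wnt signalling induces, had the highest mean FPKM of the 10 genes over all libraries, though not the highest value in every library. It had 65.97, 57.9 and 51.5 CPM in obesity-prone, 53.0, 56.9 and 42.0 CPM in obesity-resistant, and 34.1, 32.0, 25.6 and 60.7 CPM in control libraries. Control replicate 4 lay within the obesity-prone range, and the other 3 control libraries lay below every library of the high-fat diet. Obesity-prone against control libraries gave a log2 fold change of 0.62 ± 0.25, and of 0.93 without control replicate 4.

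In obesity-resistant against control libraries the log2 fold change of Axin2 was 0.41 ± 0.25 (95% interval -0.15 to 0.97, adjusted p = 0.43 by edgeR). Without control replicate 4 it was 0.73 (adjusted p = 0.033), and with the replicate number as a block, which leaves control replicate 4 without a partner, it was 0.73 (adjusted p = 0.025). Those fits called 864 and 382 genes in this comparison, against 28 in the main fit. The adjusted p over all alternatives ran from 0.015 to 0.67. Between the diet groups the log2 fold change was 0.21 ± 0.27 (-0.39 to 0.81, adjusted p = 0.73). The antisense gene Gm11670 shares exon bases with Axin2, and without a stated strand setting reads of the 2 cannot be told apart.

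**Figure D3:**
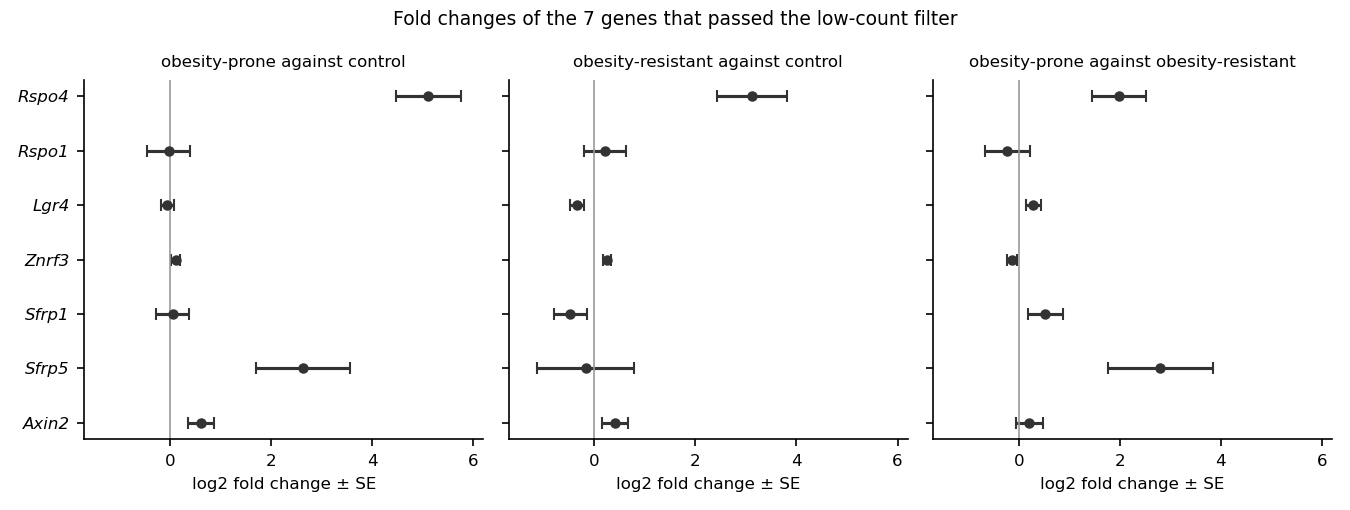
Log2 fold changes ± SE of the 7 genes that passed the low-count filter, in obesity-prone against control (left), obesity-resistant against control (middle) and obesity-prone against obesity-resistant libraries (right). Rspo4 has values of 5.11, 3.12 and 1.99 and Sfrp5 the widest bars, with SE of 0.93, 0.96 and 1.04.

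Leaving out Rspo4, 0 of the 6 other genes tested were called by edgeR in obesity-resistant against control libraries, where 0.142% of all genes (28 of 19676, or 382 with the replicate number as a block) were called, and 2 had an unadjusted p below 0.05 (Lgr4 and Znrf3), against 18.0% of all genes. In obesity-prone against obesity-resistant libraries 0 of the 6 were called, as were 0.00% of all genes, and 1 had an unadjusted p below 0.05 (Sfrp5), against 15.4% of all genes. DESeq2, another count test, called 0 of the 6 in either comparison.

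Levels per transcript length placed the 10 genes over 3 orders of magnitude. Mean FPKM over all libraries was 11.5 for Axin2, 7.67 for Znrf3, 6.37 for Lgr4, 5.03 for Sfrp5, 0.796 for Sfrp1, 0.375 for Rspo1, 0.282 for Rspo4, 0.073 for Rspo3, 0.015 for Rnf43 and 0.011 for Wif1. Each neighbouring pair in this order overlapped or met in its range over libraries. Within single libraries, Sfrp5 was above Sfrp1 and Rspo3 above Rnf43 in every library, and the other neighbours did not keep 1 order throughout. The place of Rspo4 depended on the group. In obesity-prone libraries it averaged 0.723 ± 0.216 FPKM (SD, n = 3) against 0.357 ± 0.168 for Rspo1, and in obesity-resistant libraries 0.18 ± 0.087 against 0.417 ± 0.163. In control libraries it averaged 0.0275 ± 0.0340 FPKM (n = 4), below Rspo1 (0.358 ± 0.113) in every library, and Rspo3 averaged 0.0975 ± 0.0287.

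**Figure D4:**
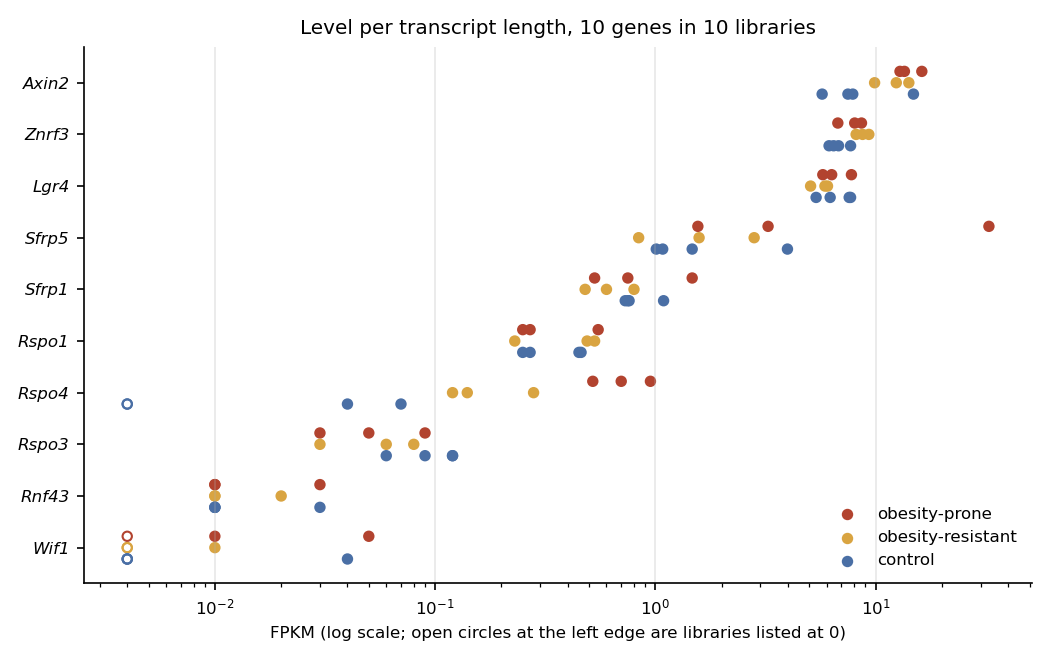
FPKM of the 10 genes in each library on a log axis, ordered by mean level, with obesity-prone, obesity-resistant and control libraries in rows from top to bottom within a gene and open circles for libraries listed at 0. Rspo4 spreads from 0 to 0.95 FPKM with its groups apart, whereas Znrf3 stays between 6.15 and 9.32 FPKM.

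Likeness to each gene was measured as Pearson's r of log2 CPM over the 10 libraries among protein-coding genes tested. These values are descriptive, since the libraries include the differences between groups and share the same normalisation. Nearest to Rspo4 was Galnt2, a glycosyltransferase that starts O-linked glycosylation (r = 0.960), with 139.7 ± 5.26 CPM in obesity-prone, 122.1 ± 6.07 CPM in obesity-resistant (SD, n = 3 each) and 98.0 ± 7.08 CPM in control libraries (n = 4). The next 4, Ccl21c, Gm10591, Gm13304 and Gm21541, had r = 0.957 and the same value in every library. They are near-identical copies between which counts can be split, so their levels are uncertain. Sfrp5 was most like Adcy5 (r = 0.975, 0.896 without obesity-prone replicate 3), Pcolce2 and Ffar2, and Sfrp1 most like Apcdd1, itself an inhibitor of Wnt signalling (r = 0.973), Glb1l2 and Gpt2. Axin2 was most like Clcn5 (r = 0.968), Smad6 and Naa50, Znrf3 most like Tdp2 (r = 0.968), Ppard and Wdr37, Lgr4 most like Itm2b (r = 0.945), Setd7 and Ankef1, and Rspo1 most like Gulp1 (r = 0.882), Inhba and Zfp945.

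The rest of the pathway was described with 8 lists of 95 genes, of which 90 were found and 74 passed the filter. In obesity-prone against control libraries 3 of the 74 rose and 2 fell by edgeR (Tpbg, Wisp2 and Bcl9l, and Wnt11 and Fzd9). Over all genes tested, 3.71% were called higher and 3.29% lower, so the lists lay near the share of all genes. Fzd9 passed the filter only through the groups where it was higher, so its call is a description. With a filter of 1 CPM in 3 libraries, which removed Fzd9, 4 list genes rose and 1 fell. The median change of the list genes was 0.10 on the log2 scale, and that of all genes tested 0.01. No list gene was called by edgeR in obesity-resistant against control libraries or between the diet groups. In the former, 10 of the 74 had an unadjusted p below 0.05 by edgeR, against 18.0% of all genes. Between the diet groups it was 16 of the 74, against 15.4% of all genes. DESeq2 called 12, 5 and 3 of the 74 in the 3 comparisons, against 3111, 1142 and 567 of all 19676 genes. Without obesity-prone replicate 3 and control replicate 4, 5 rose and 4 fell in obesity-prone against control libraries, among them the same 5 genes. Without control replicate 3, and in a fit of only the 2 groups, 0 were called.

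Wnt11, a ligand that acts mostly outside the beta-catenin branch, fell in obesity-prone libraries. It had 1.83, 1.60 and 1.26 CPM in obesity-prone, 2.75, 2.93 and 2.28 CPM in obesity-resistant, and 3.69, 2.72, 3.48 and 2.78 CPM in control libraries. Its obesity-prone libraries were below all others, and the share of all genes that lie so is not given here. The log2 fold change against control was -1.01 ± 0.20 (adjusted p = 0.023 by edgeR), lower in 3 of 3 libraries. It lost the call without obesity-prone replicate 3 (adjusted p = 0.056), control replicate 1 (0.060) or control replicate 3 (0.074). Between obesity-prone and obesity-resistant libraries it was -0.76 ± 0.21 (adjusted p = 0.23 by edgeR, and 0.041 by DESeq2). Wnt5a, the most abundant ligand per length at a mean of 3.77, 4.71 and 4.75 FPKM in obesity-prone, obesity-resistant and control libraries, was called in no comparison by edgeR or DESeq2.

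Fzd9, a Frizzled receptor, fell furthest among the list genes called. It had 0.0516, 0.0544 and 0.0790 CPM in obesity-prone, 0.334, 0.322 and 0.329 CPM in obesity-resistant, and 0.252, 0.521, 0.228 and 0.348 CPM in control libraries, which are 7, 36 and 48 counts in all. The obesity-prone libraries were below all others, and the share of all genes that lie so is not given here. Fzd9 passed the low-count filter only through obesity-resistant and control libraries, where it was higher, and a filter of 1 CPM in 3 libraries removed it. Its adjusted p-values are therefore given as a description. Against control the log2 fold change was -2.39 ± 0.44 (adjusted p = 0.020 by edgeR), and it lost the call without obesity-prone replicate 1 (0.056) or control replicate 3 (0.052). Between the diet groups it was -2.35 ± 0.45 (adjusted p = 0.23). The summed level of 11 skeletal muscle markers was 24.6 to 90.0 CPM in obesity-prone, 26.5 to 756 CPM in obesity-resistant and 26.6 to 907 CPM in control libraries, with none at 0 in any group. Their part in the level of Fzd9 was not tested. Fzd4, the most abundant receptor, had 115.5 ± 10.7 FPKM in obesity-prone, 87.1 ± 7.32 FPKM in obesity-resistant (SD, n = 3 each) and 96.6 ± 6.01 FPKM in control libraries (n = 4). It was called in no comparison by edgeR, and between the diet groups by DESeq2 (0.39, adjusted p = 0.0074).

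Tpbg, a membrane protein that inhibits canonical Wnt signalling, rose in obesity-prone libraries. It had 1.86, 1.496 and 2.90 CPM in obesity-prone, 0.918, 0.859 and 0.768 CPM in obesity-resistant, and 0.447, 0.434, 0.342 and 1.04 CPM in control libraries. Obesity-prone libraries were above all others. Of all genes, 9.66% lay wholly higher in obesity-prone than in control and 9.99% than in obesity-resistant libraries. The log2 fold change of Tpbg against control was 1.86 ± 0.37 (adjusted p = 0.024 by edgeR). Tpbg was called in 5 of 10 fits that left out a library (adjusted p 0.0035 to 0.075). It lost the call without obesity-prone replicate 1 or 3 or control replicate 1, 2 or 3.

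Wisp2, a secreted protein induced by Wnt that is also known as Ccn5, rose in obesity-prone libraries and was highest in replicate 3. It had 4.54, 1.96 and 11.9 CPM in obesity-prone, 0.556, 0.779 and 0.877 CPM in obesity-resistant, and 0.755, 0.637, 0.485 and 1.95 CPM in control libraries. The log2 fold change was 2.67 ± 0.60 (adjusted p = 0.032 by edgeR), and 1.75 (adjusted p = 0.096) without obesity-prone replicate 3, the library with the highest sum of progenitor and fibroblast markers. The part of those cells was not tested. It was called in 2 of 10 fits that left out a library, those without obesity-prone replicate 2 or control replicate 4 (adjusted p 0.011 to 0.099 over the 10).

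Bcl9l, a beta-catenin coactivator and the most abundant nuclear factor of its list, rose by a small amount. It had 196.3, 238.6 and 212.8 CPM in obesity-prone, 228.1, 194.4 and 187.6 CPM in obesity-resistant, and 168.5, 153.4, 148.7 and 158.8 CPM in control libraries. Both diet groups were above all control libraries, as were 9.66% of all genes in obesity-prone and 10.5% in obesity-resistant libraries. By edgeR the log2 fold change of Bcl9l against control was 0.46 ± 0.10 in obesity-prone (adjusted p = 0.032) and 0.37 ± 0.10 in obesity-resistant libraries (adjusted p = 0.12, and 0.020 by DESeq2). The call for obesity-prone libraries held in 3 of 10 fits that left out a library, those without obesity-prone replicate 1, obesity-resistant replicate 1 or control replicate 4 (adjusted p 0.03 to 0.1 over the 10). Bcl9l, Tpbg and Wnt11 share exon bases with genes on the other strand.

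Among the receptors of R-spondins, Lgr6 was the most abundant in this tissue. It had 378.5, 440.4 and 192.5 CPM in obesity-prone, 535.3, 507.9 and 486.5 CPM in obesity-resistant, and 173.2, 327.4, 272.7 and 374.1 CPM in control libraries. The mean level was 56.0 ± 20.3 FPKM in obesity-prone, 83.7 ± 5.22 FPKM in obesity-resistant (SD, n = 3 each) and 46.3 ± 14.5 FPKM in control libraries (n = 4), against 6.62, 5.67 and 6.72 FPKM for Lgr4. All obesity-resistant libraries were above all others. Of all genes, 10.5% lay wholly higher in obesity-resistant than in control libraries, and the share above obesity-prone libraries is not given here. The log2 fold change of Lgr6 was 0.83 ± 0.29 for obesity-resistant against control libraries (adjusted p = 0.18 by edgeR) and -0.60 ± 0.31 between the diet groups (adjusted p = 0.39). Lgr5, the remaining receptor of this kind, averaged 0.012 FPKM over all libraries.

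The transcriptional targets besides Axin2 had a median change of 1.14 on the log2 scale for obesity-prone against control libraries, with 7 of 7 above 0 and 1 called by edgeR (Wisp2). DESeq2 also called Cd44, a cell surface receptor for hyaluronan. The median was -0.38 in obesity-resistant against control libraries, with 3 of 7 above 0. It was 1.26 between the diet groups, with 7 of 7 above 0. There 5 of the 7 had an unadjusted p below 0.05 by edgeR, against 15.4% of all genes. EdgeR called 0 of the 7 in both of these comparisons, and DESeq2 called Wisp2 between the diet groups. The progenitor and macrophage marker sums were also highest in obesity-prone replicate 3, at 4397 and 544 CPM, and their part in these genes was not tested. Ccnd1, the cell cycle cyclin and the most abundant of them, had 55.9, 23.8 and 52.1 CPM in obesity-prone, 27.1, 29.5 and 18.1 CPM in obesity-resistant, and 10.8, 25.1, 14.3 and 37.8 CPM in control libraries, and the groups overlapped. The extracellular and membrane inhibitors had medians of 0.04, -0.56 and 0.76 in the same 3 comparisons, with 1 called by edgeR in the first (Tpbg) and 0 in the others. Between the diet groups 6 of 8 inhibitors were above 0 and 3 had an unadjusted p below 0.05 by edgeR, against 15.4% of all genes. The nuclear factors were above 0 there in 12 of 12 genes (median 0.18), so this direction was not particular to the targets. The cytoplasmic transducers were led by Ctnnb1 (beta-catenin) at 88.9, 89.6 and 76.8 FPKM in obesity-prone, obesity-resistant and control libraries. They had 0 of 20 called by edgeR in each comparison and medians of 0.08, 0.04 and 0.05. In obesity-resistant against control libraries 3 of the 20 had an unadjusted p below 0.05 by edgeR, against 18.0% of all genes. Between the diet groups 1 did, against 15.4%. DESeq2 called Tnks in obesity-prone against control and Tnks2 in obesity-resistant against control libraries, both tankyrases that mark AXIN for degradation. Wls, which carries Wnt ligands to the cell surface, and Kremen1, a co-receptor of the Dickkopf inhibitors, were the most abundant of their lists and were called in no comparison by edgeR or DESeq2. Cd44, Tnks and Tnks2 were named after their values were seen. So was Ror2, a receptor for Wnt5a, which had a log2 fold change of 1.57 in obesity-resistant against control libraries (adjusted p = 0.056 by edgeR). With the replicate number as a block it was 1.75 (adjusted p = 0.039), in a fit that called 382 genes against 28.

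**Figure D5:**
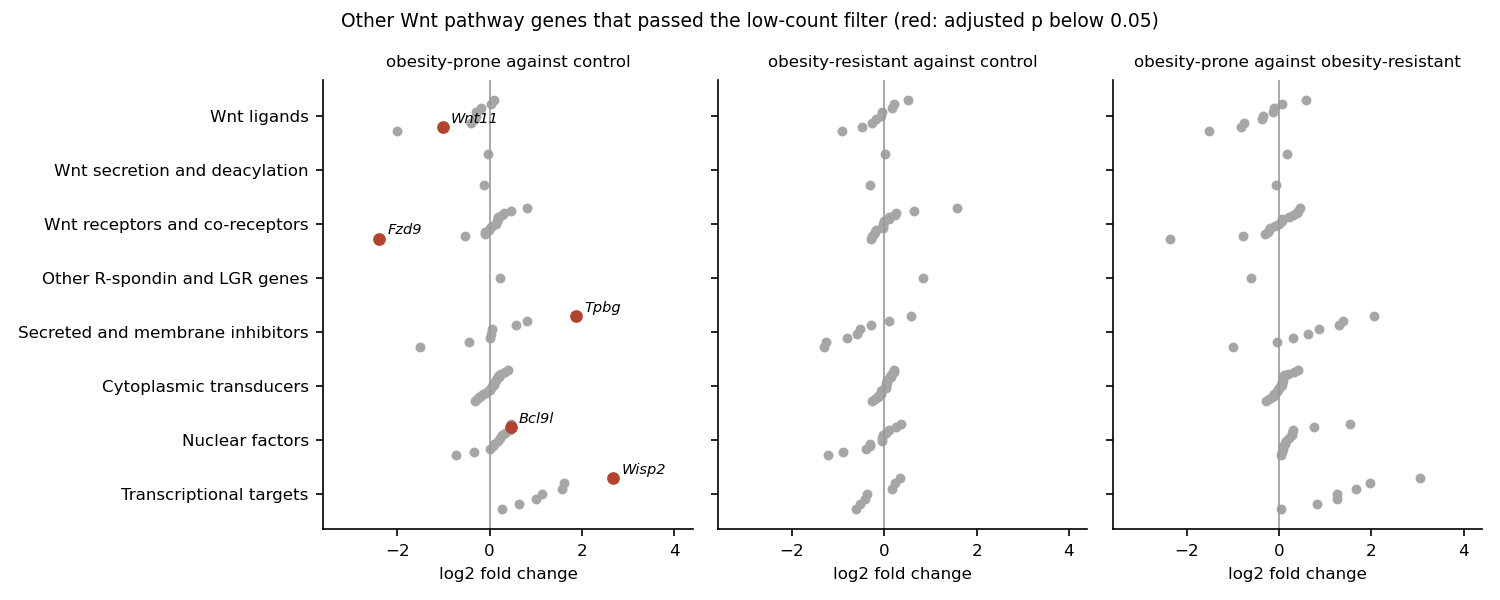
Log2 fold changes of the 74 pathway list genes that passed the low-count filter, one point per gene and one row per list, in the 3 comparisons, with genes called at an adjusted p below 0.05 in red. Wnt11 and Fzd9 lie below 0 and Tpbg, Bcl9l and Wisp2 above 0 in obesity-prone against control libraries, and the other 2 panels hold no red point.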

How the data were processed

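Brown adipose tissue RNA of 10 libraries was grouped by the labels. Per the labels' protocols, the authors aligned reads with Bowtie2 2.2.5 to a gene set of the sequencing company and computed expression with RSEM 1.2.12. The submitters' processing notes add HISAT2 2.0.4 and GRCm38.p6. The deposited expected counts are not normalised, and 30.4% were not whole. The deposited FPKM values are per transcript length, a unit inferred from their scale. The 6 columns of group means were not used.

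Expected counts were rounded and tested with edgeR 4.0.16 (R 4.3.3; TMM, filterByExpr with a minimum count of 10, robust quasi-likelihood fit of all 10 libraries). P-values were adjusted over 19676 genes, with a threshold of 0.05. DESeq2 1.42.0 and limma 3.58.1 (log2 FPKM plus 0.1 or 0.5) were alternatives. Depth limits precision for genes with few counts. Coordinates and identifiers are from RefSeq (GRCm38.p6), exon overlaps from GENCODE M21.

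All 10 genes were described. Of each pathway list the genes called, at most 4 by p per comparison, and the most abundant were named, and of like genes the 5 with the highest r for Rspo4 and 3 for each other gene. Members and lists were chosen with earlier results of these data known. The labels share replicate numbers. Deviations of same-numbered obesity-resistant and control libraries correlated at 0.121 to 0.187, every pair over 0.1. Pairs with different numbers in that comparison ran from -0.331 to 0.254, so these values do not show a pairing. The block is given beside results of that comparison where it changes the call.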

Additional observations from a re-analysis of the deposited data

How the results depend on the processing

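Against the 1377 genes called in obesity-prone against control libraries, DESeq2 called 3111, a fit of only the 2 groups 66, and fits that left out a library 76 to 3040. Against 28 in obesity-resistant against control libraries, DESeq2 called 1142, no filter 76, a filter of 1 CPM in 3 libraries 68, only the 2 groups 391, the replicate block 382, and fits that left out a library 3 to 864. Against 0 between the diet groups, DESeq2 called 567 and fits that left out a library 0 to 871. Without obesity-prone replicate 3 and control replicate 4, chosen after seeing the data, the first 2 counts were 2635 and 2212. The cause of these shifts was not tested.

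Rspo4 kept its direction in all 3 comparisons under every alternative run. Each alternative refits libraries on which the gene was chosen, so this direction was largely fixed in advance and supports nothing. In obesity-prone against control libraries its log2 fold change was 2.70 with limma on log2(FPKM + 0.1) and 1.201 on log2(FPKM + 0.5), where the added constant shrinks changes of low genes, and 4.71 to 6.15 with a library left out. For obesity-resistant against control libraries it was 3.22 with DESeq2 and 2.73 without obesity-prone replicate 3 and control replicate 4, and between the diet groups 1.997 with DESeq2. Rspo4 was chosen on libraries that both comparisons share, so these values are a description. Leaving out a library gave 2.72 to 4.16 and 1.78 to 2.36 in these comparisons.

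Of 396 alternative values for the 7 genes tested, 380 stayed within the spread or on the same side of the threshold, 8 moved, 8 newly passed (3 of them of Rspo4, where a pass supports nothing), and 13 had the opposite sign without being called. For the named pathway genes, 637 of 678 kept their call, 32 lost it and 9 gained it. Same-numbered libraries did not deviate together in obesity-prone against control (-0.146 to -0.0865) or between the diet groups (-0.108 to 0.206), where the replicate block gave 1582 and 0 genes. In obesity-resistant against control libraries the block changed the call of Axin2 and of no other of the 7 genes. With 1 library left out of a group of 3, the 2 remaining are assumed to vary like the other groups. A count of 1 to 10 in a library leaves Rspo4, Rspo3, Rnf43 and Wif1 with wide counting intervals in the groups where they are low.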
